A study of Mus musculus with 6 samples.

Results

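Fatty acid uptake, mitochondrial fatty acid oxidation and the genes induced by peroxisome proliferator-activated receptors (PPARs) were examined in mouse hearts with reduced cholinergic neurotransmission. The 31 genes were listed by role, from the capture of fatty acids at the cell surface to the electron carriers that close beta-oxidation, with the receptor Ppara, its coactivator Ppargc1a and PPAR-induced genes, and were found by their symbol in the array annotation. Of them 29 have at least 1 probe set that carries their symbol alone, and these 29 genes are covered by 32 of the 35556 probe sets on the array, which holds probe sets of their own for 19938 genes in all. Acsl1, an acyl-CoA synthetase, was not matched by symbol and has no value here. Cpt1b, the muscle form of the enzyme that admits fatty acids to mitochondria, shares its probe set with a second symbol and was kept out of every count.

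Total RNA of hearts from male mice aged 3 months, wild-type (WT) or VAChT KDHOM, was measured on 6 Affymetrix Mouse Gene 1.0 ST microarrays, 3 for each genotype. VAChT, encoded by Slc18a3, loads acetylcholine into synaptic vesicles, and VAChT KDHOM mice are homozygous for an allele that lowers its expression throughout the body, not in the heart alone. No animal was treated. The sample records give C57BL/6 as the strain and heart as the tissue, whereas the methods of the study give a mixed C57BL6/j background with few generations of backcrossing and ventricles as the tissue. Since RNA of 2 samples was pooled for every array, the errors and p-values below stand for differences among pools and not among animals, and nothing here separates fewer cells of a type from less RNA per cell. Values are log2 signals, in which a difference of 0.379 corresponds to 1.3-fold, and differences are given as VAChT KDHOM minus WT.

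The adult heart draws much of its energy from fatty acids. They are taken up with the help of lipoprotein lipase, the scavenger receptor Cd36 and cytosolic binding proteins, activated to acyl-CoA, carried into mitochondria by the carnitine shuttle and shortened by beta-oxidation, which passes electrons to the respiratory chain through the electron transfer flavoprotein. Ppara, a nuclear receptor activated by fatty acids, binds DNA together with the retinoid X receptor at direct repeats of a hexamer and induces many of these genes, with Ppargc1a as a coactivator.

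Of 25 listed genes with a promoter window in RefSeq (GRCm38.p6, 250 bases before to 50 after the annotated start), 5 held the receptor half-site AGGTCA on either strand, namely Acadm, Acadvl, Cd36, Cpt1a and Ucp3. Among all 27025 genes with a window, 18.1% held it. The direct repeat AGGTCANAGGTCA, which contains the half-site, was found in none of the 25 and in 0.0481% of all genes. The looser form AGGNCANAGGNCA was also found in none of the 25 and in 0.451% of all genes. The stretches upstream of 4 starts are shown 5′ to 3′ on the gene's strand, with half-sites of either orientation in capitals. Ucp3, with half-sites beginning 149 and 44 bases before the start, is shown as the single listed gene past an unadjusted p of 0.05. Acadm, with a half-site beginning 249 bases before the start, is shown for the lowest difference of the 29 genes. The other 3 genes with a half-site had differences close to 0, at -0.019 for Cd36, 0.064 for Acadvl and 0.086 for Cpt1a.
Ucp3, chr7:100472741-100472990, plus strand: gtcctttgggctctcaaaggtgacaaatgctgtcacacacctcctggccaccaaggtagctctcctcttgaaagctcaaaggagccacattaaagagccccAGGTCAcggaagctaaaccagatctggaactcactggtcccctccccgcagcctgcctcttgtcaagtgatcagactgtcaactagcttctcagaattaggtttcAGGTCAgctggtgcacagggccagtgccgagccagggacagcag
Acadm, chr3:153944644-153944893, minus strand: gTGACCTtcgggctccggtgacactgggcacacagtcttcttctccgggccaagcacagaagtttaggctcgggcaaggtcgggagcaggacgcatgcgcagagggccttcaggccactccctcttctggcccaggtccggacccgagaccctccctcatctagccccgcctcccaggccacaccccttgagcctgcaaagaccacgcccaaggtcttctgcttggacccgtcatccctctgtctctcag
The remaining pair encodes the alpha and beta subunits of the mitochondrial trifunctional protein and is read outward from a shared region, so that 228 of the 250 bases upstream of each gene are the same bases on opposite strands. Neither stretch holds a half-site.
Hadha, chr5:30154981-30155230, minus strand: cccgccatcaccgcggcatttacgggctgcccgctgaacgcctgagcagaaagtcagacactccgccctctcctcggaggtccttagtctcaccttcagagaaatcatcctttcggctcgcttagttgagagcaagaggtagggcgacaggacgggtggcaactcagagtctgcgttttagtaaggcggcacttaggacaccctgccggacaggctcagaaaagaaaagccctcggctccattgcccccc
Hadhb, chr5:30155003-30155252, plus strand: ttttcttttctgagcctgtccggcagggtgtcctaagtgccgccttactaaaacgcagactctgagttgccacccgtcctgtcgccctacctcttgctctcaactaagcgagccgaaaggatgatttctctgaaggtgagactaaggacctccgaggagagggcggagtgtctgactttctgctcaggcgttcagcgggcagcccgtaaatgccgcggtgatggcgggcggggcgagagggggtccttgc

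The arrays were compared with their labels. The targeted gene, Slc18a3, was at 7.31, 7.42 and 7.11 in WT 1, 2 and 3 and at 7.24, 6.77 and 7.58 in VAChT KDHOM 1, 2 and 3. Its groups overlapped, and the position of its probes relative to the altered allele is not known here. Ogdhl, an oxoglutarate dehydrogenase-like protein, read 9.60, 7.21 and 10.33 on the WT arrays and 7.06, 10.17 and 7.09 on the VAChT KDHOM arrays. For that gene WT 2 lay with VAChT KDHOM 1 and 3, and VAChT KDHOM 2 with WT 1 and 3, so results that rest on the arrays numbered 2 are given with and without them, and all arrays are named by their labels. The 10 cardiomyocyte markers were all above background, taken as the 95th percentile of 1035 olfactory receptor probe sets (6.5). So were all 32 probe sets of the listed genes and all 5 atrial markers, whose summed level was 13.34 to 13.51 in WT and 13.44 to 13.94 in VAChT KDHOM hearts, highest in VAChT KDHOM 3. The atrial markers lay above 0 in 5 of 5, with a median difference of 0.218 and none past an unadjusted p of 0.05. Of the fibroblast markers 2 of 6 and of the macrophage markers 5 of 6 lay above 0, with medians of -0.024 and 0.115.

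The array labelled VAChT KDHOM 1 stood apart for bright probe sets. Its highest signal was 13.70, against 14.71 to 14.90 on the other arrays. Against the mean of the other 5 arrays it differed by a median of -0.043 for probe sets around a signal of 7.25, by -0.31 around 13.25 and by -1.02 around 14.75. Many fatty acid oxidation genes lie in the affected range. All 8 listed genes with a mean signal of 13 or more (Cd36, Lpl, Fabp3, Acadm, Hadh, Acaa2, Ech1 and Etfb) read lowest on this array, as did 96.7% of the 214 probe sets of that brightness, against 38.1% of the other 21 listed genes and 18.8% of the other probe sets. The median deviation on this array was -0.25 for these 8 genes and -0.32 for all probe sets of that brightness. The mean signal of the cardiomyocyte markers was 13.11 there and 13.69 to 13.75 on the other arrays. Differences of bright genes are therefore also given without this array.

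**Figure D1:**
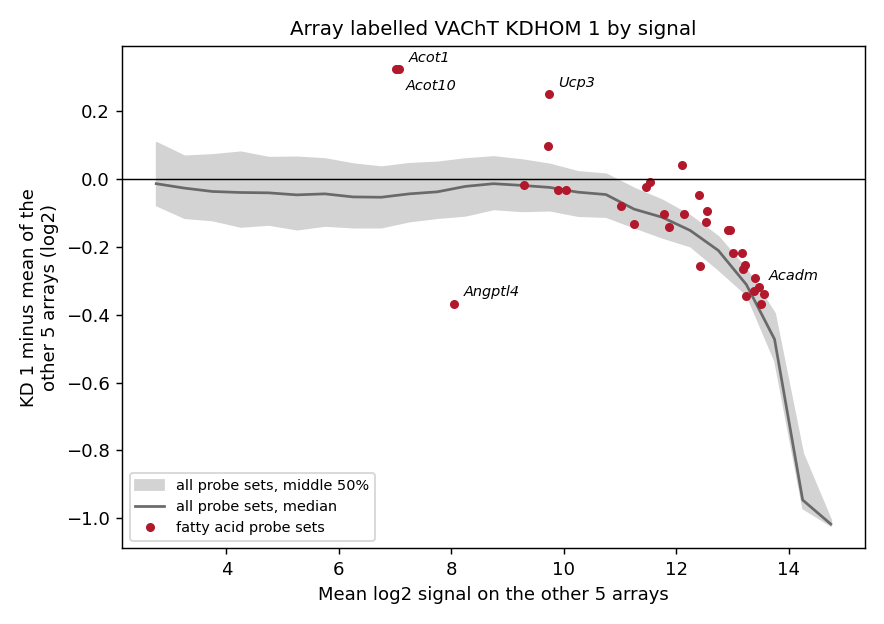
Signal on the array labelled VAChT KDHOM 1 minus the mean of the other 5 arrays (y axis, log2) against that mean (x axis, log2). The grey band and line show the middle 50% and the median of all probe sets in bins, and red points are the 32 fatty acid probe sets; the bright ones follow the downward bend of the band. Ucp3, Acot1 and Acot10 (0.252, 0.326 and 0.326) are among the points above the band, with Etfa and Ppara nearer to it, and Angptl4 lies below it at -0.367.

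In the hearts of VAChT KDHOM mice the 29 genes lay close to their WT level. Their differences ran from -0.17 for Acadm to 0.30 for Ucp3 with a median of -0.001, against -0.018 over all probe sets, and 14 of 29 were above 0. For 22 of 29 genes the difference was smaller than 0.1, and the median standard error was 0.099 for the genes and 0.103 for all probe sets. None of the 32 probe sets passed an adjusted p of 0.05 in limma, with a lowest adjusted p of 0.409, where 0.00281% of all probe sets passed. At the study's thresholds, an unadjusted p of 0.05 with 1.3-fold, 0 of 32 passed, against 3.79% of all probe sets. At an unadjusted p of 0.05 without a fold limit 1 of 32 passed in limma, Ucp3, against 11.7% of all probe sets, and 0 of 32 passed in the methods' ANOVA. In 1 of 32 the groups did not overlap, again Ucp3, against 19.2% of all probe sets.

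The 95% interval of the difference lay within 1.3-fold in either direction for 24 of the 29 genes. In the other 5, Acadm, Ucp3, Acot1, Acot10 and Angptl4, it reached that size, so for these a difference of 1.3-fold was not resolved with 3 arrays in each group. Without both arrays numbered 2 the interval lay within 1.3-fold for 12 of 29 genes, and without the array labelled VAChT KDHOM 1 for 25 of 29. Without the array labelled VAChT KDHOM 1 the median moved to 0.070 and 23 of 29 genes lay above 0, while the median of all probe sets was -0.001. The 8 bright genes then had a median of 0.036, against -0.062 on all arrays. All probe sets of that brightness moved the same way, to a median of 0.05 from -0.094 on all arrays. Centring each array on its median also moved the genes up, to a median of 0.066 with 25 of 29 above 0, where all probe sets moved to 0.049.

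**Figure D2:**
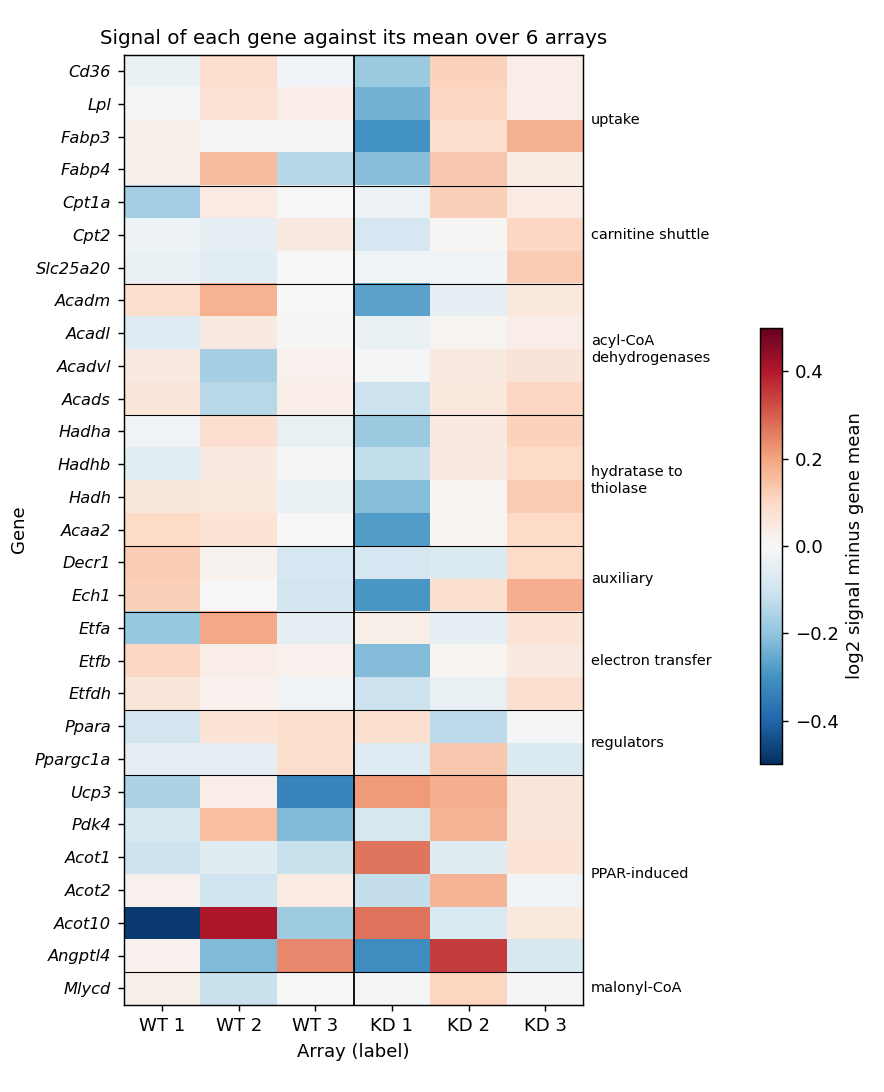
Log2 signal of each of the 29 genes (rows, grouped by role) on each of the 6 arrays (columns) minus the gene's mean over the arrays, in colour. Cd36, Lpl, Fabp3, Acadm, Acaa2 and Ech1 are blue on KD 1, Acot10 and Angptl4 are the most variable rows, and Ucp3 is red on all 3 VAChT KDHOM arrays.

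**Figure D3:**
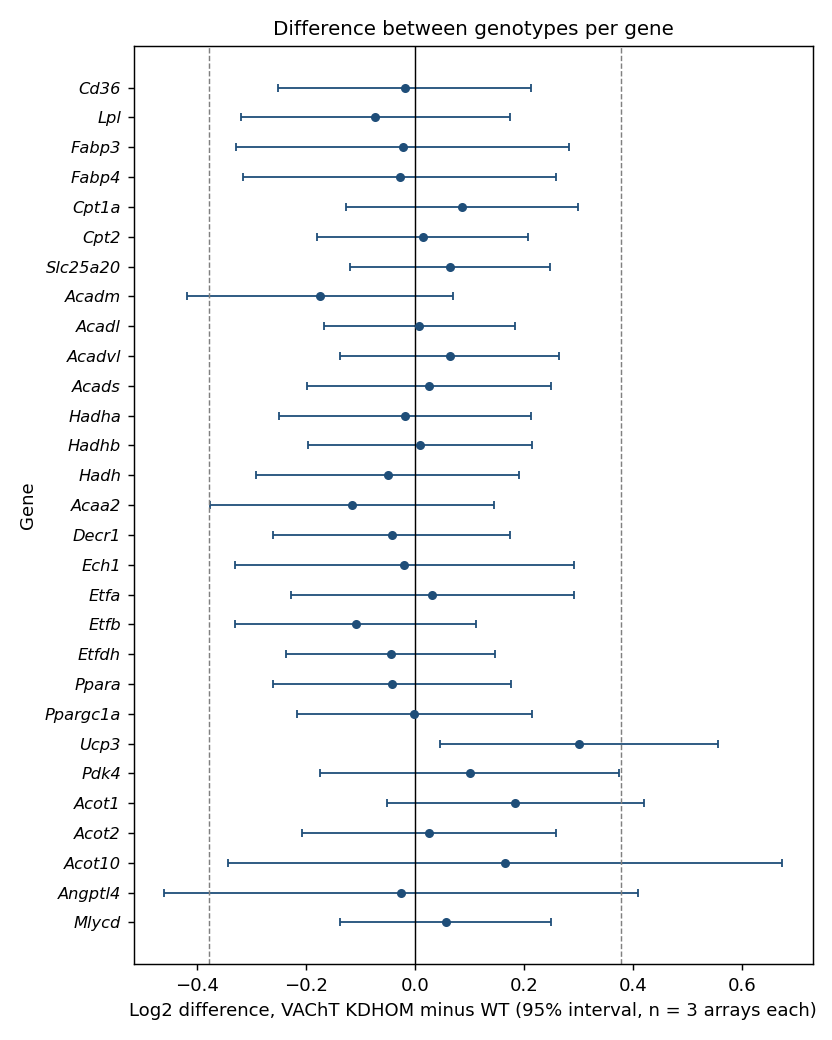
Log2 difference, VAChT KDHOM minus WT, of each of the 29 genes with its 95% interval from limma (3 arrays in each group). Dashed lines mark 1.3-fold in either direction; all intervals but that of Ucp3 include 0, and 5 cross a dashed line.

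The genes of fatty acid uptake had differences between -0.073 and -0.019, and none of the 4 passed an unadjusted p of 0.05. Their sign depended on the scaling, since 2 of 4 lay above 0 after a further quantile normalization and 3 of 4 with each array centred on its median. Cd36, which takes up long-chain fatty acids, read 13.10, 13.22 and 13.12 in WT and 12.95, 13.25 and 13.17 in VAChT KDHOM hearts, a difference of -0.019 (standard error 0.099, adjusted p = 0.945 from limma over all probe sets, 3 arrays in each group). The VAChT KDHOM arrays held both the lowest and the highest value. Lpl, lipoprotein lipase, read 13.34, 13.42 and 13.38 in WT and 13.11, 13.45 and 13.38 in VAChT KDHOM hearts. Fabp3, the heart fatty acid binding protein, read 13.48, 13.46 and 13.46 in WT and 13.15, 13.54 and 13.63 in VAChT KDHOM hearts. The WT values of Fabp3 were close together and the VAChT KDHOM values lay on both sides of them, as they did at its other probe set (13.06 to 13.48 against 13.31 to 13.39). Fabp4, a binding protein of endothelial cells and adipocytes, differed by -0.028 (standard error 0.12). Without the array labelled VAChT KDHOM 1 all 4 lay above 0, at 0.067 for Cd36, 0.030 for Lpl, 0.12 for Fabp3 and 0.071 for Fabp4. The endothelial markers, all 10 above background, had a median difference of 0.017 and a summed level (log2 of the summed signal) of 13.63 to 13.87 in WT and 13.65 to 13.84 in VAChT KDHOM hearts.

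The 3 genes of the carnitine shuttle with a probe set of their own lay slightly above 0 and did not pass an unadjusted p of 0.05. Cpt1a, the liver form of the outer membrane enzyme, read 9.86, 10.07 and 10.03 in WT and 10.00, 10.15 and 10.07 in VAChT KDHOM hearts, a difference of 0.086 (standard error 0.091, adjusted p = 0.687). The groups overlapped, with WT 1 the lowest array. Slc25a20, the carnitine-acylcarnitine carrier, differed by 0.064 (standard error 0.079) and Cpt2, the inner membrane enzyme, by 0.014 (standard error 0.083). The probe set that Cpt1b shares with Gm44502 read 12.69, 12.61 and 12.75 in WT and 12.48, 12.71 and 12.81 in VAChT KDHOM hearts, a difference of -0.017 (standard error 0.105).

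Among the acyl-CoA dehydrogenases, which start each round of beta-oxidation on chains of different length, Acadm had the lowest difference of the 29 genes. Acadm, the medium-chain enzyme (probe set 10502951), read 13.51, 13.60 and 13.43 in WT and 13.16, 13.38 and 13.48 in VAChT KDHOM hearts. The difference was -0.17 (95% interval -0.42 to 0.069, adjusted p = 0.509), and VAChT KDHOM 3 lay above WT 3, so the groups overlapped. Without the array labelled VAChT KDHOM 1 it was -0.086. The other dehydrogenases differed by 0.064 for Acadvl (very long chain), 0.025 for Acads (short chain) and 0.008 for Acadl (long chain), with standard errors of 0.086, 0.096 and 0.075. Acadvl and Acads shared their lowest array, WT 2, at 11.36 and 11.09.

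The enzymes that complete the round, from hydration to thiolysis, differed by -0.12 to 0.009. Hadha and Hadhb, whose upstream stretches largely coincide as shown above, had much the same profile over the arrays. Whether the shared stretch has a part in that profile was not tested. Hadha read 12.96, 13.06 and 12.94 in WT and 12.79, 13.02 and 13.09 in VAChT KDHOM hearts. Hadhb read 12.88, 12.98 and 12.93 in WT and 12.81, 12.98 and 13.03 in VAChT KDHOM hearts. Both were lowest on VAChT KDHOM 1 and highest on VAChT KDHOM 3, and their differences were -0.019 and 0.009, with 0.010 at the other probe set of Hadhb. Fabp3, Hadh and Ech1 had the same lowest and highest arrays. Against the mean of the other arrays, Hadha and Hadhb differed on VAChT KDHOM 1 by -0.217 and -0.151. All probe sets differed there by a median of -0.21 around a signal of 12.75 and of -0.31 around 13.25. Acaa2, the mitochondrial thiolase, read 13.60, 13.57 and 13.50 in WT and 13.22, 13.51 and 13.60 in VAChT KDHOM hearts, a difference of -0.12 (standard error 0.11) that was -0.004 without the array labelled VAChT KDHOM 1. Hadh, the 3-hydroxyacyl-CoA dehydrogenase of shorter chains, differed by -0.050 on all arrays and by 0.042 without that array. The auxiliary enzymes of unsaturated fatty acids, Decr1 (a reductase) and Ech1 (an isomerase), differed by -0.043 and -0.020. Without the array labelled VAChT KDHOM 1 they differed by -0.011 and 0.119.

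Electrons from the dehydrogenases pass to the electron transfer flavoprotein, made of Etfa and Etfb, and on to its ubiquinone oxidoreductase Etfdh. Etfa read 11.93, 12.31 and 12.07 in WT and 12.15, 12.07 and 12.19 in VAChT KDHOM hearts, a difference of 0.032 (standard error 0.11). Without both arrays numbered 2 the difference of Etfa was 0.171 (standard error 0.124, adjusted p = 0.595 from limma). The groups of 2 arrays then did not overlap, as for 46.5% of all probe sets in that setting. Etfb read 13.25, 13.18 and 13.17 in WT and 12.93, 13.16 and 13.19 in VAChT KDHOM hearts, a difference of -0.11 (standard error 0.095). Without the array labelled VAChT KDHOM 1 the difference of Etfb was -0.026. The subunits of the dimer did not share their order over the arrays: Etfa was lowest on WT 1, where Etfb was highest. Etfdh differed by -0.045 (standard error 0.082). None of the 3 passed an unadjusted p of 0.05.

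The regulators themselves lay near 0. Ppara read 9.64, 9.80 and 9.82 in WT and 9.81, 9.60 and 9.72 in VAChT KDHOM hearts, a difference of -0.042 (95% interval -0.26 to 0.18). Ppargc1a, a coactivator of mitochondrial biogenesis and oxidation, read 10.96, 10.96 and 11.09 in WT and 10.94, 11.14 and 10.93 in VAChT KDHOM hearts, a difference of -0.001 (95% interval -0.22 to 0.21), and of 0.039 at its other probe set. Mlycd, which removes malonyl-CoA, the inhibitor of fatty acid entry into mitochondria, differed by 0.057 (standard error 0.083).

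The 6 PPAR-induced genes of the list had a median difference of 0.13, with 5 of 6 above 0. A further 10 PPAR-induced genes, of the wider pathway lists, did not show that direction, with 2 of 10 above 0 and a median of -0.077. Of these, Cyp4a10, Cyp4a14 and Vnn1 had means below background, and Fgf21, at 6.52, lay only just above it. Cyp4a14 was 1 of the 2 above 0, at 0.017. Ehhadh, a known PPAR target with a difference of 0.227, was listed with the peroxisomal genes and is not in either count. Ucp3, an uncoupling protein of the inner mitochondrial membrane that is induced with fatty acid use (probe set 10555378), read 9.62, 9.81 and 9.45 in WT and 9.99, 9.96 and 9.84 in VAChT KDHOM hearts. Every VAChT KDHOM array lay above every WT array, with WT 2 and VAChT KDHOM 3 only just apart. The difference of 0.30 (standard error 0.11, 95% interval 0.046 to 0.56), or 1.23-fold, had a limma p of 0.0268 and an adjusted p of 0.409. Without the array labelled VAChT KDHOM 1 it was 0.27 and no longer passed an unadjusted p of 0.05, and without both arrays numbered 2 it was 0.38 and still passed (adjusted p = 0.464). Each of the other single arrays that ended the unadjusted call when left out, WT 1, WT 3 and VAChT KDHOM 2, left the difference above 0, in a range of 0.212 to 0.394 over all 6. After a further quantile normalization it was 0.247, did not pass and had overlapping groups, and Acot1 was then the listed gene whose groups did not overlap.

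Markers of other tissues in which uncoupling proteins are known to be expressed were read beside Ucp3. All 8 fast skeletal muscle markers, a list added after the values of Ucp3 were seen, lay below 0 in VAChT KDHOM hearts with a median of -0.16. Over all probe sets the median was -0.018, and 16276 of 35556 lay above 0. Actn3 and Tnni2 passed an unadjusted p of 0.05 in limma, as did 11.7% of all probe sets, and neither passed an adjusted p of 0.05. Of the 8 markers 4 were above background. The log2 of their summed signal was 9.82 to 10.11 in WT and 9.67 to 9.81 in VAChT KDHOM hearts. The mean signal of the 8 was 6.87 on WT 1 and 6.49 to 6.68 on the other arrays. Of the brown adipocyte markers 2 of 5 lay above 0 and 2 of 5 were above background, with a summed level of 9.67 to 9.87 in WT and 9.71 to 9.81 in VAChT KDHOM hearts. Cidea and Prdm16 were the 2 in both counts, and the sum rests mostly on them. Ucp1, Dio2 and Elovl3, with means below background, differed by -0.68, -0.326 and -0.224. The groups did not overlap for Ucp1 and Dio2, as for 19.2% of all probe sets, and Dio2 passed an unadjusted p of 0.05 in limma (adjusted p = 0.409). Ucp1, the defining gene of that cell type, read 7.41 on WT 1 and 5.79 to 6.07 on the other arrays, with a mean below background. Of the white adipocyte markers 2 of 6 lay above 0 and 4 of 6 were above background. Their summed level was 9.60 to 10.07 in WT and 9.46 to 10.29 in VAChT KDHOM hearts. Adipoq was not among the 4 and read below background on every array. The part of these cells in the values of Ucp3, Lpl, Cd36 and Fabp4 was not tested.

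Pdk4, the kinase that limits glucose oxidation, read 12.45, 12.68 and 12.31 in WT and 12.45, 12.70 and 12.59 in VAChT KDHOM hearts, a difference of 0.10 (standard error 0.12, adjusted p = 0.72). The arrays numbered 2 were the highest of both groups. Acot1, a cytosolic acyl-CoA thioesterase, read 7.03, 7.07 and 7.02 in WT and 7.40, 7.07 and 7.20 in VAChT KDHOM hearts, a difference of 0.18 (standard error 0.10, adjusted p = 0.485). WT was tight and VAChT KDHOM spread, with VAChT KDHOM 2 at the WT level. Without both arrays numbered 2 the difference was 0.28 (adjusted p = 0.478), and without VAChT KDHOM 1 it was 0.094. It passed an unadjusted p of 0.05 without VAChT KDHOM 2 and under median centring (0.25). Acot2, its mitochondrial neighbour on the chromosome and near-identical relative, read 11.86, 11.74 and 11.88 in WT and 11.72, 12.01 and 11.82 in VAChT KDHOM hearts, a difference of 0.026. VAChT KDHOM 1, the highest array for Acot1, was the lowest for Acot2. Whether the probes of either gene also bind the other transcript was not tested.

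Acot10 and Angptl4 were the most variable of the 29 genes. Acot10, a mitochondrial acyl-CoA thioesterase (probe set 10427883), read 6.60, 7.48 and 6.90 in WT and 7.35, 7.00 and 7.13 in VAChT KDHOM hearts, a difference of 0.165 (standard error 0.22, adjusted p = 0.751). Both the lowest and the highest value came from WT arrays, and the highest was WT 2. Angptl4, a secreted inhibitor of lipoprotein lipase (probe set 10450038), read 8.01, 7.77 and 8.23 in WT and 7.68, 8.34 and 7.91 in VAChT KDHOM hearts, a difference of -0.026 (standard error 0.19, adjusted p = 0.961). Its highest value was VAChT KDHOM 2, and WT 2 was the lowest of the WT arrays. For both genes, as for Ogdhl, the arrays numbered 2 lay towards the arrays of the opposite label. Without both of them Acot10 differed by 0.49 (standard error 0.16, adjusted p = 0.464) and Angptl4 by -0.32 (standard error 0.15, adjusted p = 0.472), and the groups of 2 arrays did not overlap for either gene, as for 46.5% of all probe sets in that setting. Acot10 then passed an unadjusted p of 0.05 and Angptl4 did not. Leaving out WT 2 alone also brought Acot10 past it, at 0.41. Both genes belong to a list that the study chose from these same arrays, so their direction is not independent evidence.

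**Figure D4:**
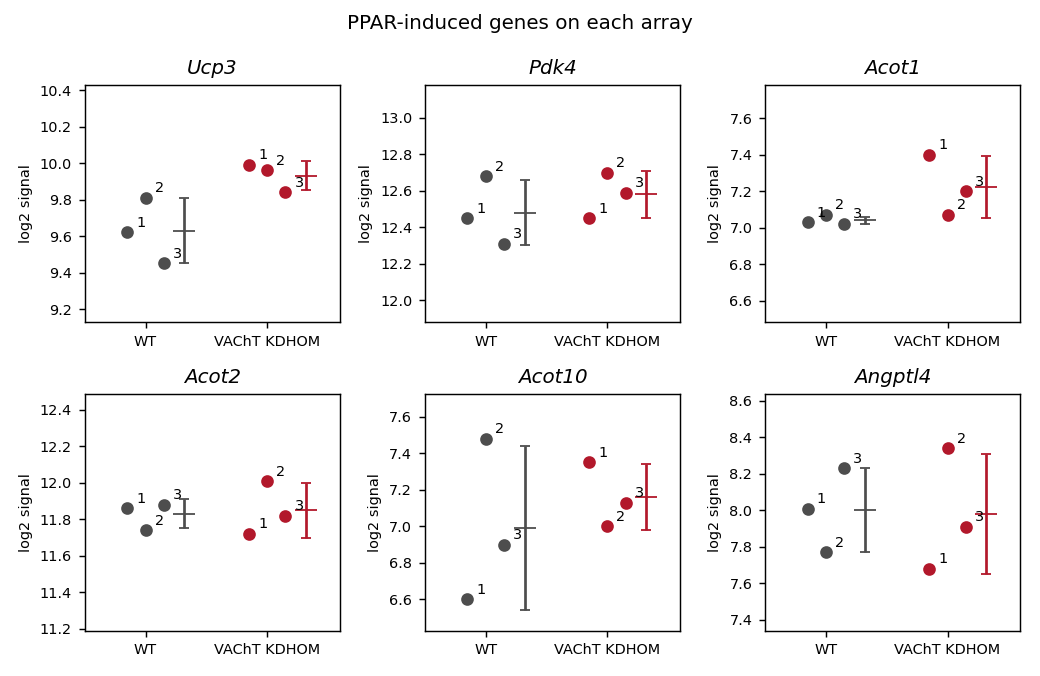
Log2 signal (y axis, the same span in every panel) of the 6 PPAR-induced genes on each array, numbered as labelled, in WT (grey) and VAChT KDHOM (red) hearts; horizontal marks and bars are the mean and SD of 3 arrays. Ucp3 is the gene whose groups do not overlap, and the points numbered 2 lie on the far side of their group in Acot10 and Angptl4.

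Of 94 other genes of fatty acid metabolism, 86 had a probe set of their own. None passed an adjusted p of 0.05 in limma, 2 were higher and 2 lower at an unadjusted p of 0.05, and 1 was lower at the study's thresholds, shares to be read against the 11.7% and 3.79% of all probe sets. Their median difference was 0.021 and 54 of 86 lay above 0. Ehhadh, the peroxisomal bifunctional enzyme and a known PPAR target, read 8.27, 8.41 and 8.42 in WT and 8.56, 8.61 and 8.62 in VAChT KDHOM hearts. Its groups did not overlap, and the difference was 0.23 (standard error 0.080, adjusted p = 0.409). The unadjusted call ended without WT 1, VAChT KDHOM 2 or VAChT KDHOM 3 and without both arrays numbered 2, while the difference kept to 0.178 to 0.254 with single arrays left out. Of the 17 peroxisomal genes 12 lay above 0, with a median of 0.073. Cidea, a lipid droplet protein, read 8.77, 8.70 and 8.73 in WT and 8.86, 8.92 and 8.97 in VAChT KDHOM hearts, a difference of 0.18 (standard error 0.075, adjusted p = 0.419). It is also a brown adipocyte marker, and the summed level of that list, given above, rests largely on Cidea itself. Its unadjusted call ended without WT 2, WT 3, VAChT KDHOM 2 or VAChT KDHOM 3, without both arrays numbered 2 (0.163), with the replicate number as a block and after quantile normalization (0.119).

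Txnip, a thioredoxin-binding protein that restrains glucose uptake, was the gene lower at the study's thresholds. It read 12.73, 12.44 and 12.41 in WT and 11.79, 12.41 and 12.14 in VAChT KDHOM hearts, a difference of -0.41 (standard error 0.17, adjusted p = 0.416) with overlapping groups. The lowest array was VAChT KDHOM 1, and the call ended when that array, WT 1, WT 2 or VAChT KDHOM 3 was left out, with a range of -0.559 to -0.251. It also ended with each array centred on its median (-0.346), with array weights (-0.349), with the methods' ANOVA and with the replicate number as a block (-0.412). The call held without both arrays numbered 2 (-0.601) and after a further quantile normalization (-0.403). Slc27a6, a fatty acid transport protein, read 5.61, 5.59 and 5.56 in WT and 5.36, 5.43 and 5.36 in VAChT KDHOM hearts, a difference of -0.20 (standard error 0.072, adjusted p = 0.409). All of its values lay below background, and the unadjusted call ended without WT 2, VAChT KDHOM 1 or VAChT KDHOM 3, without both arrays numbered 2 (-0.225) and with centring (-0.136).

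In the remaining lists no gene passed an unadjusted p of 0.05. Bdh1, which oxidises the ketone body beta-hydroxybutyrate, read 9.23, 9.95 and 10.21 in WT and 10.15, 10.26 and 10.17 in VAChT KDHOM hearts, a difference of 0.40 (standard error 0.23, adjusted p = 0.499). The size of that difference rested on WT 1, which lay below all other arrays. Med1, a subunit of the mediator complex that binds nuclear receptors, differed by 0.22 (standard error 0.13), and was likewise lowest on WT 1 at 9.36. Dgat2, which makes triglyceride, differed by -0.16 (standard error 0.090), and Slc25a42, the mitochondrial coenzyme A carrier, by 0.155 (standard error 0.12). The median differences of these lists lay between 0.009 for triglyceride turnover and 0.042 for receptors and coactivators.

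**Figure D5:**
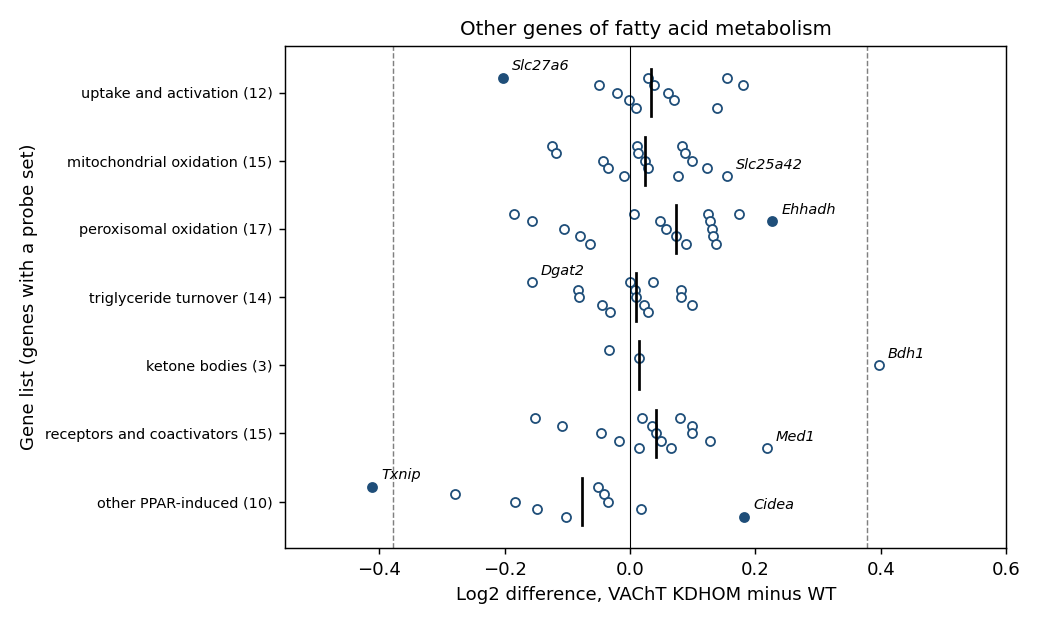
Log2 difference, VAChT KDHOM minus WT, of the 86 other genes of fatty acid metabolism (points), by list, with the median of each list as a black bar and 1.3-fold in either direction as dashed lines. Filled points passed an unadjusted p of 0.05 in limma; points of 1 list are spread vertically to keep them apart. Txnip and Bdh1 lie beyond the dashed lines and the list medians lie between -0.077 and 0.073.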

How the data were processed

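The deposited values are log2 signals. The authors used Command Console 1.1 for the scans and RMA, as run in Partek Genomics Suite 6.5, for background correction, normalization across arrays and a gene-level summary of probes. The genome build is not given in the sources used here. All 35556 probe sets entered the fit, with no filter or further normalization, and were named from the platform annotation, in which 21789 carry a single gene symbol. Neighbours and promoter sequences are from RefSeq (GRCm38.p6). Each probe set was fitted with limma 3.58.1 in R 4.3.3, VAChT KDHOM against WT, and p-values were adjusted by the Benjamini-Hochberg method across the whole array; levels of different probe sets were not compared. An exact permutation test of 3 against 3 arrays cannot give a two-sided p below 0.1, and the number of arrays limits the precision. The procedure was tested on simulated data with independent noise and no array effect. That test therefore does not cover the low bright signals of the array labelled VAChT KDHOM 1.

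Of several probe sets of a gene the brightest stands for it. Named were all listed genes, pathway genes past an unadjusted p of 0.05, the gene with the widest difference in each pathway list, marker lists, and Slc18a3 and Ogdhl as checks of the labels; single markers were chosen after their values were seen. The genes, lists and tests were chosen with earlier results of these data known. Alternatives were quantile normalization, median centring, each array left out, both arrays numbered 2 left out, a replicate block, array weights, the methods' ANOVA, a filter on dim probe sets, trended eBayes and the mean over probe sets; members below a signal of 13 were added after seeing the data. Figures were drawn with matplotlib 3.10.9.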

Additional observations from a re-analysis of the deposited data

How the results depend on the processing

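No listed probe set passed an adjusted p of 0.05 under any alternative run. In several of these settings no probe set of the whole array passed either, so they cannot set the listed genes apart. The lowest adjusted p over the array was 0.138 without both arrays numbered 2, 0.312 with the replicate block and 0.168 with the methods' ANOVA. With single arrays left out it was 0.123 to 0.227. At the study's thresholds the 0 became 2 without both arrays numbered 2 (Ucp3 and Acot10, with 7.87% of all probe sets) and 0 to 2 with single arrays left out, the 2 being Ucp3 and Acot10 without WT 2 (6.11% of all). At an unadjusted p the 1 became 0 after quantile normalization (10.3% of all), 0 with the methods' ANOVA (8.67%), 2 with median centring (Ucp3 and Acot1, 10.4%), 2 without both arrays numbered 2 (10.6%), and 0 to 2 with single arrays left out (6.07% to 13.1%): 0 without WT 1, WT 3 or VAChT KDHOM 1, 2 without WT 2. Probe sets without overlap still numbered 1 after quantile normalization, but Acot1 in place of Ucp3 (17.1% of all), and numbered 5 with centring (Slc25a20, Acadvl, Ucp3, Acot1 and Mlycd, with 19% of all), 8 without both arrays numbered 2 (46.5% of all) and 1 to 4 with single arrays left out (23.5% to 34.6% of all): 1 without WT 1, 4 without VAChT KDHOM 3 and 3 without each of the others. The 8 without both arrays numbered 2 were Etfa, Ucp3, Acot1 and Acot10, higher in VAChT KDHOM, and Ppargc1a, Acot2, Angptl4 and Mlycd, lower. The 1 pathway gene at the study's thresholds became 0 with centring, array weights, the replicate block and the ANOVA, and 0 to 3 with single arrays left out, 0 without WT 1, WT 2, VAChT KDHOM 1 or VAChT KDHOM 3 and 3 without WT 3 (Bdh1, Txnip and Cyp4a10). The median difference was 0.066 with centring, -0.028 without both arrays numbered 2, 0.025 over genes below a signal of 13 and -0.035 (without VAChT KDHOM 3) to 0.07 (without VAChT KDHOM 1) with single arrays left out. The cause of these changes was not tested.

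Differences near 0 changed sign easily. After quantile normalization Cd36 was 0.029, Fabp3 0.04, Acads -0.002, Hadha 0.012, Hadh 0.007, Ech1 0.034 and Mlycd 0. With centring Cd36 was 0.047, Fabp3 0.044, Fabp4 0.038, Hadha 0.048, Hadh 0.016, Decr1 0.024, Ech1 0.047, Etfdh 0.022, Ppara 0.024, Ppargc1a 0.066 and Angptl4 0.041. Without both arrays numbered 2 Cpt2 was -0.003, Acadvl -0.007, Acads -0.054, Ppara 0.038, Acot2 -0.098 and Mlycd -0.028. With array weights Cpt2 was -0.001, Acadl -0.014, Hadhb -0.02, Etfa -0.043, Ppargc1a 0.02 and Angptl4 0.043. With single arrays left out the ranges were -0.082 to 0.067 for Cd36, -0.142 to 0.03 for Lpl, -0.119 to 0.125 for Fabp3, -0.11 to 0.071 for Fabp4, -0.035 to 0.06 for Cpt2, -0.021 to 0.031 for Acadl, -0.001 to 0.102 for Acadvl, -0.036 to 0.087 for Acads, -0.079 to 0.067 for Hadha, -0.035 to 0.074 for Hadhb, -0.128 to 0.042 for Hadh, -0.101 to 0.01 for Decr1, -0.113 to 0.119 for Ech1, -0.056 to 0.136 for Etfa, -0.099 to 0.014 for Ppara, -0.07 to 0.042 for Ppargc1a, -0.054 to 0.091 for Acot2, -0.032 to 0.41 for Acot10 and -0.207 to 0.121 for Angptl4. Whether equal replicate numbers pair the arrays is not known. The deviations of same-number arrays from their group means correlated at 0.057, -0.125 and 0.133, which cannot settle it with so few arrays. With the number as a block the median difference stayed at -0.001, Ucp3 kept its unadjusted call, and Txnip and Cidea lost theirs.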
